A study of Mus musculus with 6 samples.

Results

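The 8 genes described here, Hmgcs1, Idi1, Fdps, Fdft1, Sqle, Lss, Cyp51 and Insig1, belong to the cholesterol synthesis programme. They were taken by symbol from the 27998 genes of the deposited count matrices, and each symbol matched 1 row in all 6 libraries. The study sequenced 3′ tags of single epithelial cells from mouse small intestine on the 10x platform. It compared 3 libraries labelled Itgb7 KO, genotype Itgb7-/-, with 3 wild-type libraries. All mice were C57BL/6J and 8 weeks old, and no treatment is named. Per its title, the study asked how T cells that carry the integrin of which Itgb7 encodes the β chain direct the fate of intestinal stem cells. Which part of Itgb7 was deleted, which stretch of the intestine was taken, and whether a library holds 1 mouse or several are not stated. The p-values below therefore set each difference against the variation between these libraries. That variation may not be the one between mice, and some of it may be technical.

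Cholesterol is built from acetyl-CoA through mevalonate, isoprenoid diphosphates, squalene and lanosterol. The transcription factor SREBP2, encoded by Srebf2, drives nearly all genes of the route when membrane sterols are low. When sterols are plentiful, the INSIG proteins hold SREBP and its escort SCAP in the endoplasmic reticulum. Enterocytes also absorb sterols from the gut lumen, so synthesis and uptake meet in the same cells. Hmgcs1 makes HMG-CoA near the entry of the route. Idi1 interconverts the pair of isoprenoid diphosphates that serve as building blocks, and Fdps joins them into farnesyl diphosphate. Fdft1, squalene synthase, takes the first step that serves sterols alone. Sqle oxidises squalene, Lss closes the rings to give lanosterol, and Cyp51 removes a methyl group from lanosterol. Insig1 is no enzyme: it is a retention protein for SREBP, and is itself an SREBP target.

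Gene positions come from the GENCODE M21 annotation of mm10. The early genes were Hmgcs1 (ENSMUSG00000093930) at chr13:119690379-119708260 on the plus strand, Idi1 (ENSMUSG00000058258) at chr13:8885501-8892451 on the plus strand and Fdps (ENSMUSG00000059743) at chr3:89093588-89101959 on the minus strand. The squalene and sterol genes were Fdft1 (ENSMUSG00000021273) at chr14:63145150-63179578 on the minus strand, Sqle (ENSMUSG00000022351) at chr15:59315077-59331192 on the plus strand, Lss (ENSMUSG00000033105) at chr10:76531588-76557138 on the plus strand and Cyp51 (ENSMUSG00000001467) at chr5:4081145-4104746 on the minus strand. Insig1 (ENSMUSG00000045294) lies at chr5:28071363-28078662 on the plus strand.

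RefSeq promoters (build GRCm38.p6, 250 bases before to 50 after the transcription start) could be matched by symbol for 5 of the 8 genes: Hmgcs1, Idi1, Lss, Cyp51 and Insig1. Those of 3 genes are shown, because Hmgcs1 had the largest fall of the 8 in crypt against villus cells, Idi1 was not called there, and Insig1 differed most between neighbouring classes. Each is written 5′ to 3′ on the strand of the gene. Capitals mark matches on either strand to 3 motifs: TCACNCCAC, a form of the sterol regulatory element, CCAAT, the box bound by NF-Y, and GGGCGG, the GC box bound by Sp1.
Hmgcs1 (chr13:119690101-119690400, plus strand): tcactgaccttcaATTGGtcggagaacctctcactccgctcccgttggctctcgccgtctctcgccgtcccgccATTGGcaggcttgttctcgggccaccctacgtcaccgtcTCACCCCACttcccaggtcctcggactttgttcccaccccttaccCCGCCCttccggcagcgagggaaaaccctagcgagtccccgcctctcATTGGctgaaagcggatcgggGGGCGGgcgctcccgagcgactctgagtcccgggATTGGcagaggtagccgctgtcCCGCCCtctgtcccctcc
Idi1 (chr13:8885356-8885655, plus strand): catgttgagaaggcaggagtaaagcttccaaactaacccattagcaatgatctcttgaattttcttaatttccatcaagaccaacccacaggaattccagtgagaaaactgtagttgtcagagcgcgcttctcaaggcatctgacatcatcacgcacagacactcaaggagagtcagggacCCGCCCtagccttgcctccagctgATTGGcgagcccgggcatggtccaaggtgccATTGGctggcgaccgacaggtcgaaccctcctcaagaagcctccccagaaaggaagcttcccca
Insig1 (chr5:28071162-28071461, plus strand): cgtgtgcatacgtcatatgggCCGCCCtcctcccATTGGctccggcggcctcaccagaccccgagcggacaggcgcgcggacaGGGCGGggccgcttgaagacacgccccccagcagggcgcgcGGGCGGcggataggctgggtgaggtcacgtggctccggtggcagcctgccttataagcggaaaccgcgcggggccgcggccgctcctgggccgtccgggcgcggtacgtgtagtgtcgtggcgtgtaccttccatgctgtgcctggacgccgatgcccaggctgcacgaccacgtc
The sterol regulatory element form was found once among the 5 promoters, in that of Hmgcs1, and in 1.24% of all 32851 promoters of the table. Hmgcs1 held 4 CCAAT boxes and 3 GC boxes, Idi1 held 2 and 1, and Insig1 held 1 and 3. At least 1 CCAAT box was present in 37.4% of all promoters and at least 1 GC box in 35.7%. These matches describe the letters in the window and say nothing of what binds there.

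There were 2797, 5738 and 4642 barcodes in the libraries labelled Itgb7 KO, with 62224718, 57949476 and 28475253 UMIs, and 2773, 5058 and 5145 in wild-type libraries, with 76133693, 63316811 and 63647862 UMIs. Of the 26153 barcodes 25076 were kept, and 22298 of them fell into 8 epithelial classes named from marker genes. Between any pair of libraries 12 to 42 barcode sequences were shared. Over all barcodes, Itgb7 had 18, 33 and 12 UMIs in the libraries labelled Itgb7 KO, against 3, 8 and 2 in wild-type libraries. A 3′ tag can lie outside the deleted part, so these UMIs do not check the labels, and directions between genotypes rest on the labels. The replicate 1 libraries of both groups stood apart: Paneth cell markers summed to 51405 CPM (UMIs of a gene scaled to a total of 1000000) in the library labelled Itgb7 KO and 82012 in the wild-type library, against 2979.9 to 3947 in the other 4 libraries.

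The 8 genes were read in 7 classes, leaving out tuft-like cells, of which 1 library held only 10. The mean of 7 of the 8 genes was highest in goblet-like cells, the mucus-secreting cells. Levels are CPM of the class, and since a 3′ tag is counted once per molecule they do not scale with gene length. These levels were scaled to the class total of each library only, and no test set goblet-like cells against another class. Hmgcs1 stood at 134, 222 and 243 CPM in goblet-like cells labelled Itgb7 KO and at 152, 191 and 124 CPM in wild-type goblet-like cells. In stem-like cells Hmgcs1 reached 51.7, 61.7 and 47.9 CPM in libraries labelled Itgb7 KO and 55.1, 61.8 and 54.7 CPM in wild-type libraries. In each of the 6 libraries goblet-like cells had more Hmgcs1 than any other class, and the mean of the highest class was 3.20 times that of the lowest.

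The order of classes by mean Hmgcs1 was goblet-like at 178 ± 49.0 CPM (SD over 6 libraries), mature enterocyte-like at 121 ± 15.4, enteroendocrine-like at 117 ± 30.9, Paneth-like at 99.2 ± 62.4, lower-villus enterocyte-like at 97.0 ± 13.3, transit-amplifying-like at 85.4 ± 15.5 and stem-like at 55.5 ± 5.51. Of the neighbours in that order, only goblet-like over mature enterocyte-like cells, and transit-amplifying-like over stem-like cells, differed the same way in all 6 libraries. Fdps ran through 259.9 ± 38.7 CPM in goblet-like, 197 ± 25.4 CPM in lower-villus and 163 ± 20.3 CPM in transit-amplifying-like cells down to 98.5 ± 15.7 CPM in stem-like cells, and both top steps held in all 6 libraries. Cyp51 had 79.95 ± 10.3 CPM in goblet-like, 59.5 ± 8.06 CPM in lower-villus, 50.7 ± 8.35 CPM in mature enterocyte-like and 45.6 ± 7.52 CPM in transit-amplifying-like cells. Each of those 3 steps of Cyp51 held in all 6 libraries.

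Among the other enzymes, Fdft1 averaged 78.5 ± 7.64 CPM and Lss 15.2 ± 1.05 CPM in goblet-like cells (SD, n = 6 libraries). In stem-like cells Fdft1 lay at 32.5 ± 6.85 CPM and Lss at 6.00 ± 2.18 CPM. Goblet-like cells had the highest Fdft1, Lss and Sqle in all 6 libraries, with Sqle at 59.3 ± 13.2 CPM there and 49.1 ± 7.05 CPM in transit-amplifying-like cells. Insig1 was highest in goblet-like cells in 5 of the 6 libraries and in mature enterocyte-like cells in the other. Its means were 100.9 ± 44.0 CPM in goblet-like and 80.02 ± 31.2 CPM in mature enterocyte-like cells. Idi1 was the exception, with 90.0 ± 26.2 CPM in transit-amplifying-like, 84.1 ± 16.3 CPM in lower-villus and 82.3 ± 30.1 CPM in goblet-like cells, classes that did not keep 1 order across the libraries. Its lowest means were 38.7 ± 10.5 CPM in enteroendocrine-like cells and 37.6 ± 23.4 CPM in Paneth-like cells.

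Paneth-like levels split by replicate number. The 8 genes summed to 129, 389 and 577 CPM in Paneth-like cells labelled Itgb7 KO and to 146, 634 and 457 CPM in wild-type Paneth-like cells, with the lowest value in replicate 1 of both groups. The 6 dissociation stress genes moved with them, at 919.7, 3058 and 4166 CPM in Paneth-like cells labelled Itgb7 KO and 707, 3494 and 3131 CPM in wild-type Paneth-like cells. Replicate 1 held 79 Paneth-like cells labelled Itgb7 KO and 112 wild-type ones, with medians of 58385 and 84342.5 UMIs. Itgb7 KO replicates 2 and 3 held 31 and 24, with medians of 11308 and 5997.5 UMIs. Wild-type replicates 2 and 3 held 39 and 36, with medians of 11019 and 11543.5 UMIs. In Itgb7 KO replicate 3 the members had from 1 UMI (Lss) to 23 UMIs (Fdps). Hmgcs1 had 148 UMIs in replicate 1 Paneth-like cells labelled Itgb7 KO and 35 and 22 in replicates 2 and 3. In wild-type Paneth-like cells it had 351 UMIs in replicate 1 and 96 and 57 in replicates 2 and 3. CPM is a share of all UMIs of the class, so the low values do not show fewer UMIs of these genes per cell. The part of depth, cell number and stress genes in the low values was not tested.

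**Figure D1:**
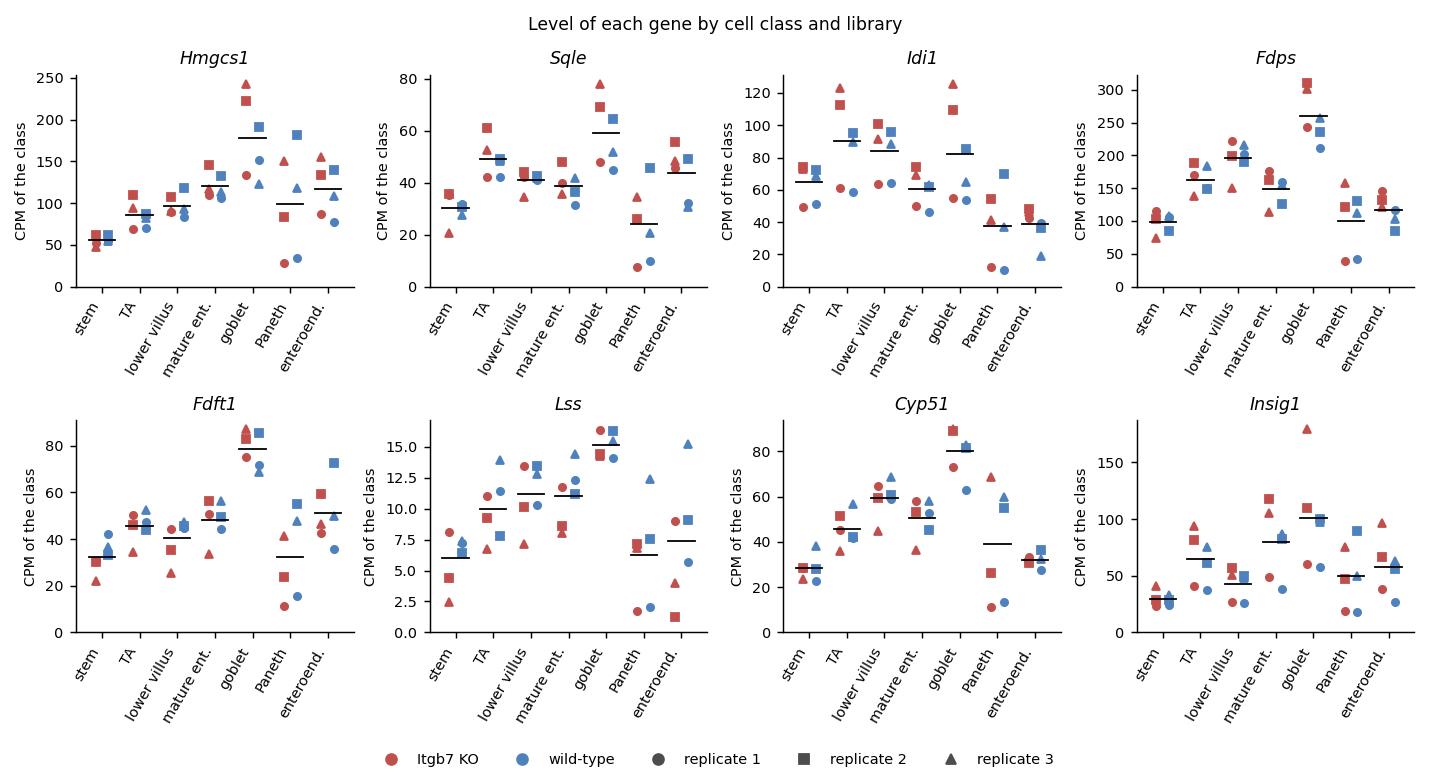
Level of each of the 8 genes (y axis, CPM of the class) in 7 cell classes (x axis; TA is transit-amplifying) for each library, libraries labelled Itgb7 KO left of wild-type libraries in each class, marker shape by replicate number, with the mean of the 6 libraries as a line. Goblet-like cells have the highest mean of 7 genes (Hmgcs1 178 CPM), and Idi1 has its highest mean in transit-amplifying-like cells at 90.0 CPM.

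The share of cells with at least 1 UMI was also compared after each cell was thinned to 2000 UMIs, which left out 121 cells labelled Itgb7 KO and 0 wild-type cells. Hmgcs1 was then seen in 14.4% ± 3.09 of crypt cells and 17.8% ± 1.58 of villus cells (SD, n = 6 libraries), and in 9.41% ± 2.34 of stem-like cells. Unthinned, these shares were 57.9%, 61.9% and 39.6%. Fdps was seen in 38.3% ± 3.69 of thinned goblet-like cells and in 16.2% ± 3.42 of thinned stem-like cells, and in 88.3% and 58.1% unthinned. No class is known to lack these genes, so no background share from free RNA could be set.

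Crypt cells (stem-like and transit-amplifying-like together) had less of 6 of the 8 genes than villus cells (lower-villus and mature enterocyte-like together) after TMM scaling, and less of 4 on library totals. Hmgcs1 and Cyp51 were furthest apart, and Sqle and Idi1 were not called. Levels here are CPM after TMM scaling, edgeR's correction for a few very abundant genes. Hmgcs1 had 67.3, 93.8 and 80.2 scaled CPM in crypt cells labelled Itgb7 KO and 68.4, 76.8 and 73.2 in wild-type crypt cells, against 110.2, 132 and 113 in villus cells labelled Itgb7 KO and 105, 129 and 106 in wild-type villus cells. The crypt and villus values of Hmgcs1 did not overlap. Cyp51 had 43.3, 43.6 and 31.3 scaled CPM in crypt cells labelled Itgb7 KO and 39.8, 37.3 and 50.7 in wild-type crypt cells, against 68.2, 57.1 and 43.0 in villus cells labelled Itgb7 KO and 62.9, 54.1 and 64.1 in wild-type villus cells. Its compartments overlapped across libraries, yet within each of the 6 libraries the crypt value was the lower one.

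The log2 fold change of crypt over villus was −0.60 ± 0.04 (SE) for Hmgcs1, with an edgeR quasi-likelihood adjusted p of 6.7e-10, and −0.51 ± 0.05 for Cyp51, with an adjusted p of 5.2e-08 (library as a block, Benjamini-Hochberg over all genes tested). Lss fell by 0.39 ± 0.09, Fdps by 0.31 ± 0.04, Insig1 by 0.22 ± 0.05 and Fdft1 by 0.19 ± 0.04 on the log2 scale. Their edgeR adjusted p-values were 0.00063, 4.0e-06, 0.00155 and 0.000571 in that order. Sqle differed by 0.05 ± 0.05 (adjusted p = 0.382) and Idi1 by 0.08 ± 0.05 (adjusted p = 0.159). At the coarser Leiden resolution 1.0 both were called higher in crypt cells, Sqle by 0.20 ± 0.05 and Idi1 by 0.14 ± 0.04 (edgeR adjusted p = 0.000639 and 0.00437). With stem-like against mature enterocyte-like cells in place of crypt against villus, Sqle was lower at −0.54 ± 0.09 (adjusted p = 1.5e-05) and Idi1 had −0.10 ± 0.07 (adjusted p = 0.158). Fdft1 lost its call at resolution 1.0 (−0.08 ± 0.04, adjusted p = 0.0973) and with thinning to 2000 UMIs a cell (−0.13 ± 0.08, adjusted p = 0.152).

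In the exact 2-sided sign-flip permutation test over the 6 libraries, on TMM-scaled CPM, Hmgcs1, Cyp51, Lss, Fdps and Fdft1 each gave p = 0.031, the smallest that 6 libraries allow, and were lower in crypt cells of 6 of 6 libraries. Insig1 was lower in 5 of 6 libraries (exact permutation p = 0.0625). On library totals Hmgcs1, Cyp51 and Lss were again lower in 6 of 6 libraries, and Sqle and Idi1 were higher in 6 of 6 (exact permutation p = 0.031 for each of the 5). There Fdps was lower in 5 of 6 (exact permutation p = 0.0625), and Fdft1 (p = 0.688) and Insig1 (p = 0.656) in 3 of 6.

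These calls stand against a wide background: 81.5% of the 11562 genes tested were called, 41.2% higher and 40.3% lower in crypt cells. The share of members called in either direction was near that background, and none of the 6 was higher. The median log2 fold change of the members was −0.27, against 0.02 over all genes tested. Without TMM, on library totals, the median over all genes was 0.18 and 5810 genes were called higher and 3663 lower, against 4760 and 4663 with TMM. On that scale Sqle (0.21 ± 0.05, edgeR adjusted p = 0.00104) and Idi1 (0.24 ± 0.05, adjusted p = 0.000416) were called higher in crypt cells. Fdft1 (−0.03 ± 0.04, adjusted p = 0.576) and Insig1 (−0.05 ± 0.05, adjusted p = 0.396) were no longer called, so Hmgcs1, Cyp51, Lss and Fdps were the 4 called lower on both scales. Sqle (0.15 ± 0.05, edgeR adjusted p = 0.00747) and Idi1 (0.09 ± 0.04, adjusted p = 0.0416) were also called higher with clusters 10 and 14, unnamed here, counted as villus. Insig1 also lost its call without Itgb7 KO replicate 2 (−0.11 ± 0.05, adjusted p = 0.0757) or without wild-type replicate 2 (−0.13 ± 0.06, adjusted p = 0.0504).

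**Figure D2:**
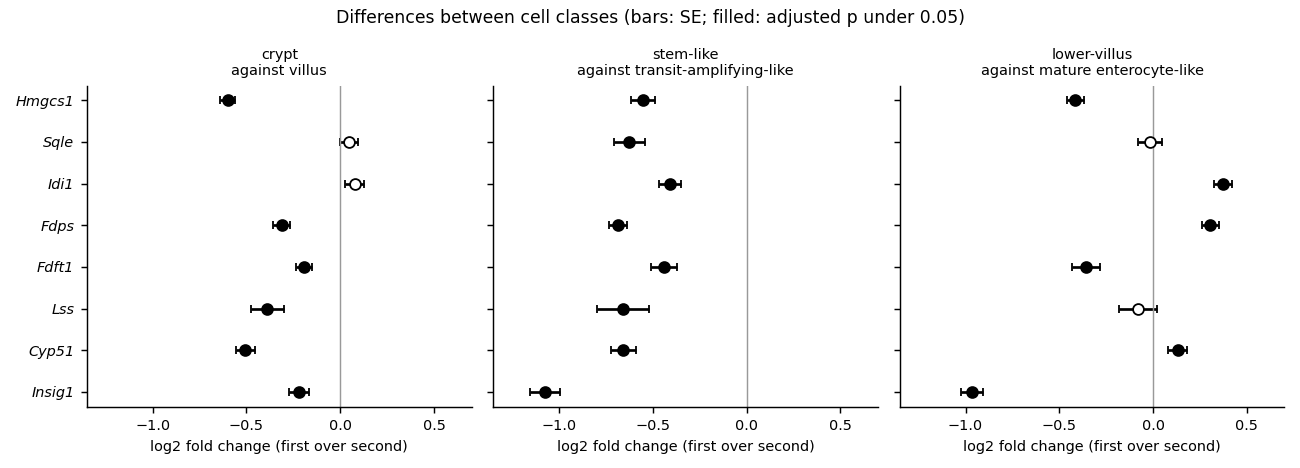
Log2 fold change (x axis, first class over second, TMM-scaled, with SE bars) of each gene (rows) in crypt against villus, stem-like against transit-amplifying-like and lower-villus against mature enterocyte-like cells, over 6 libraries. Filled points have an edgeR adjusted p under 0.05, for 6, 8 and 6 of the 8 genes, with Insig1 furthest from 0 in the middle and right panels at −1.08 and −0.97, while Fdft1 and Insig1 lose and Sqle and Idi1 gain a call in the left panel on library totals.

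Within the crypt, stem-like cells had less of all 8 genes than transit-amplifying-like cells, a class named for dividing progenitors. This held in 6 of 6 libraries for each gene. Transit-amplifying-like cluster 8, with 1250 cells, had Ascl2 and Lgr5 among its leading genes. Lgr5 averaged 74.8 CPM there, against 98.7 and 55.9 CPM in stem-like clusters 0 and 2. The proliferation marker Mki67 averaged 129 CPM there, against 18.6 and 55.9 CPM. The contrast thus does not set all Lgr5-high cells against the rest. The part of cell division in it was not tested. Of the 8 genes Insig1 differed most. It had 23.0, 28.5 and 41.2 CPM in stem-like cells labelled Itgb7 KO and 23.8, 28.7 and 32.8 CPM in wild-type stem-like cells, against 40.7, 81.3 and 94.2 CPM in transit-amplifying-like cells of the KO-labelled libraries and 37.2, 61.2 and 75.5 CPM in wild-type ones. The classes overlapped only through the replicate 1 libraries, which had the lowest Insig1 of transit-amplifying-like cells. Its log2 fold change was −1.08 ± 0.08 (SE, edgeR adjusted p = 3.0e-12).

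All 7 enzymes fell as well. The log2 fold change was −0.69 ± 0.05 for Fdps, −0.66 ± 0.14 for Lss, −0.66 ± 0.07 for Cyp51, −0.63 ± 0.08 for Sqle, −0.55 ± 0.06 for Hmgcs1, −0.44 ± 0.07 for Fdft1 and −0.41 ± 0.06 for Idi1 (SE), and the highest edgeR adjusted p among them was 0.000197. Of the 10774 genes tested 57.1% were called, 29% higher and 28.2% lower in stem-like cells. The median log2 fold change was −0.64 over the members and 0.01 over all genes tested. Every one of the 8 calls was kept under each alternative run for this comparison. Of the 6 dissociation stress genes 5 were called higher and 1 lower in stem-like cells, with a median log2 fold change of 0.31, and of 5 proximal intestine genes tested 4 were lower. The part of these lists in the members' differences was not tested.

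Between the enterocyte classes the 8 genes parted. These classes also differ in markers of intestinal region: of the lower-villus clusters, 13 (895 cells) and 16 (715 cells) were led by Fabp6, the ileal bile acid-binding protein, which was 4.76 ± 0.15 log2 units higher in lower-villus cells. Insig1, Hmgcs1 and Fdft1 were lower in lower-villus than in mature enterocyte-like cells as whole classes, while Idi1, Fdps and Cyp51 were higher. For Hmgcs1 and Fdft1 the fall did not hold in lower-villus cluster 16, as described below. Insig1 had 27.2, 56.8 and 50.8 CPM in lower-villus cells labelled Itgb7 KO and 25.6, 49.6 and 48.0 CPM in wild-type lower-villus cells, against 48.9, 118 and 105 CPM in mature enterocyte-like cells labelled Itgb7 KO and 38.2, 82.7 and 87.2 CPM in wild-type ones. Replicate 1 was again lowest in every group, and within each library the lower-villus value was the smaller. The log2 fold change of lower-villus over mature cells was −0.97 ± 0.06 for Insig1 (SE, edgeR adjusted p = 1.7e-11), −0.42 ± 0.04 for Hmgcs1 (adjusted p = 1.1e-07) and −0.36 ± 0.07 for Fdft1 (adjusted p = 0.000303).

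Both isoprenoid enzymes went the other way. Idi1 had 63.6, 100.9 and 91.7 CPM in lower-villus cells labelled Itgb7 KO and 63.9, 95.9 and 88.5 CPM in wild-type lower-villus cells, against 50.02, 74.3 and 69.3 CPM in mature cells labelled Itgb7 KO and 46.4, 61.6 and 62.8 CPM in wild-type mature cells. The log2 fold change was 0.37 ± 0.05 for Idi1 (SE, edgeR adjusted p = 1.1e-06) and 0.31 ± 0.04 for Fdps (adjusted p = 5.3e-06), each higher in 6 of 6 libraries. Cyp51 had 0.13 ± 0.05 (adjusted p = 0.0402), a call lost under 5 alternatives. The fold was not smaller, with a larger error, with DESeq2 (0.14 ± 0.08, adjusted p = 0.147) and with thinning (0.25 ± 0.11, adjusted p = 0.0604). It was smaller at resolution 1.0 (0.04 ± 0.05, adjusted p = 0.517), with clusters 10 and 14 counted as villus (0.04 ± 0.05, adjusted p = 0.504) and without wild-type replicate 2 (0.11 ± 0.05, adjusted p = 0.0976). Fdft1 lost its call with thinning (−0.22 ± 0.12, adjusted p = 0.161). Sqle (−0.02 ± 0.06) and Lss (−0.08 ± 0.10) were not called, and Sqle was called lower with clusters 10 and 14 counted as villus (−0.19 ± 0.06, adjusted p = 0.00771).

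Of the 10127 genes tested 55.2% were called here, 26.3% higher and 28.9% lower, and on library totals 3686 were higher and 2207 lower, against 2664 and 2931 with TMM. The members' 3 calls in each direction lay near those shares. All 6 proximal intestine genes were lower in lower-villus cells, and so were all 6 dissociation stress genes, with a median log2 fold change of −0.99. Apoa4, Apoc3, Fabp1 and Slc2a2 of the proximal list were also among the markers that named the mature class. The class names therefore do not separate position along the villus from intestinal region. The part of region and of stress genes in the members' differences was not tested.

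The class means hid differences between clusters, which are described without a test because the clusters were drawn from the same cells. Among stem-like cells, cluster 0, with 1356 cells and led by Gkn3 and Lgr5, had a summed level of the 8 genes of 283 ± 18.7 CPM (SD, n = 6 libraries). Cluster 2, with 352 cells and led by Ifitm3 and Gkn3, had 534 ± 29.7 CPM. The proliferation marker Mki67 stood at 18.6 CPM in cluster 0 and 55.9 CPM in cluster 2. Transit-amplifying-like clusters ranged from 355 ± 77.0 CPM in cluster 1, led by the replication genes Hells and Ung, to 955 ± 115 CPM in cluster 5. The leading genes of cluster 5 held the mitotic genes Cdc20 and Ccnb2 and the lower-villus marker Rbp7. The mean of stem-like cluster 2 lay above those of 4 of the 7 transit-amplifying-like clusters. Goblet-like clusters ran from 692 ± 181 to 933 ± 177 CPM. Cluster 5, counted as crypt, had 172 ± 27.5 CPM of Hmgcs1, 84.8 ± 12.5 CPM of Cyp51 and 280 ± 31.4 CPM of Fdps. The highest means among villus clusters were 145 CPM of Hmgcs1 and 70.6 CPM of Cyp51 in cluster 16, and 226 CPM of Fdps in cluster 15. The lower crypt level of these genes thus did not hold for every crypt cluster.

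Within enterocytes, cluster 16, which had 9528 CPM of Fabp6, stood at 681 ± 77.0 CPM for the 8 genes, and cluster 13, with 2553 CPM of Fabp6, at 604 ± 60.9 CPM. The other lower-villus clusters had 494 ± 53.6 and 549 ± 74.1 CPM, and the mature enterocyte-like clusters 509 ± 77.5, 550.2 ± 85.2 and 632 ± 68.7 CPM. Neighbouring means among these clusters lay within 1 SD of each other.

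**Figure D3:**
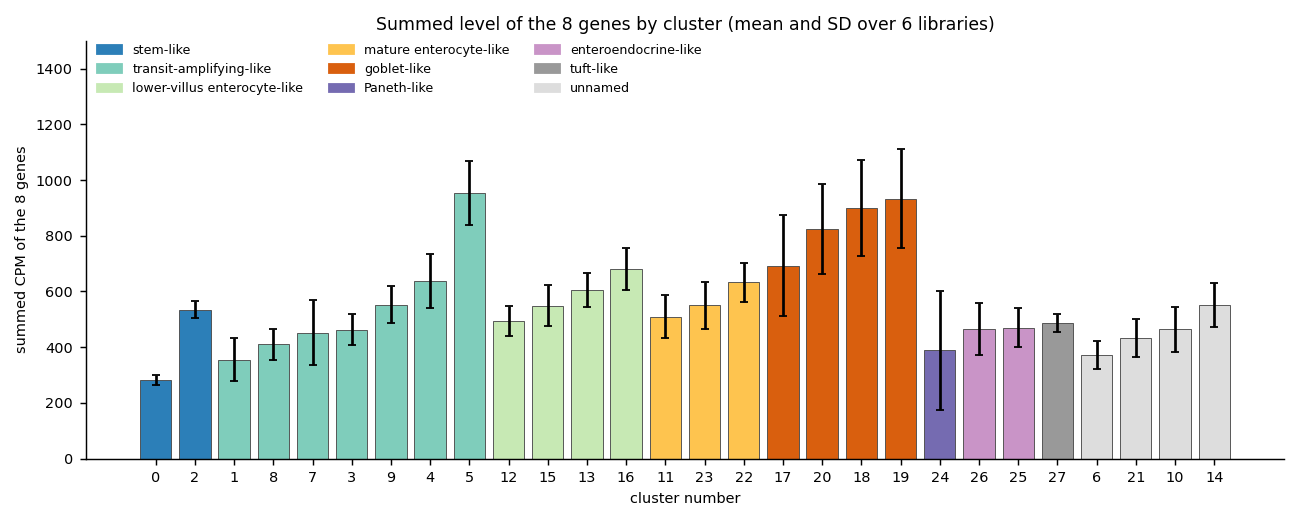
Summed CPM of the 8 genes (y axis) in each cluster (x axis, cluster number, coloured and grouped by class, unnamed clusters last), as the mean with SD over 6 libraries. The lowest bar is stem-like cluster 0 at 283 CPM and the highest is transit-amplifying-like cluster 5 at 955 CPM, with the 4 goblet-like clusters between 692 and 933 CPM.

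The other 13 enzymes of the route mostly lay on the same side. In crypt against villus cells 10 were called lower, 1 higher and 2 were not called, with a median log2 fold change of −0.37. On library totals 9 were lower and 3 higher, with a median of −0.21. Among those with the lowest adjusted p were Sc5d (−0.83 ± 0.04), Mvd (−0.70 ± 0.05) and Msmo1 (−0.60 ± 0.05; SE, highest edgeR adjusted p = 3.5e-09). Mvd makes isopentenyl diphosphate, and Msmo1 and Sc5d act between lanosterol and cholesterol. Acat2, which makes the acetoacetyl-CoA that Hmgcs1 uses, was the 1 higher enzyme (0.32 ± 0.05), and is named after its value was seen. In stem-like against transit-amplifying-like cells 12 of the 13 were called lower and 1 higher, with Msmo1 at −0.97 ± 0.08. In lower-villus against mature cells 2 were higher, 3 lower and 8 not called, against 8, 3 and 2 on library totals.

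Regulators were more mixed. Of 9 genes of the SREBP machinery, 2 were called higher and 4 lower in crypt cells. Srebf2 fell by 0.31 ± 0.07 (SE, edgeR adjusted p = 0.000452), Srebf1 by 0.16 ± 0.07 (adjusted p = 0.0467) and Insig2, the second INSIG protein, by 0.55 ± 0.05, while Scap was 0.52 ± 0.06 higher. On library totals 3 were higher and 2 lower, and neither Srebf2 (−0.14 ± 0.07, adjusted p = 0.0533) nor Srebf1 (0.01 ± 0.07, adjusted p = 0.91) was called. Of 6 SREBP2 targets outside synthesis, 3 were lower and 1 higher: Stard4, a cholesterol carrier, fell by 0.47 ± 0.04, and Tmem97 was 0.50 ± 0.04 higher (on library totals 3 were lower and 2 higher). In stem-like against transit-amplifying-like cells Srebf2 fell by 0.39 ± 0.09, while Srebf1 differed by 0.03 ± 0.09 (adjusted p = 0.848).

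Of 16 genes of sterol uptake, storage and export, 12 were lower and 3 higher in crypt cells, with a median log2 fold change of −2.07. Npc1l1, the luminal sterol importer, had −2.13 ± 0.06, Soat2, which esterifies cholesterol, −2.09 ± 0.06 and Abca1, which exports it, −2.90 ± 0.29 (SE). The 3 higher ones, named after their values were seen, were Soat1, the other enzyme that esterifies cholesterol, at 2.88 ± 0.10, Scarb1 at 1.51 ± 0.26 and Mylip at 0.99 ± 0.29. Abca1, Scarb1 and Mylip were scarce, with an average log2 CPM of −0.25, 0.26 and −0.21. Npc1l1, Soat2 and Soat1 had 5.28, 4.34 and 4.56. The sterol exporter genes Abcg5 and Abcg8 had −2.04 ± 0.05 and −2.39 ± 0.06, and Mttp and Apob, which build chylomicrons, −2.19 ± 0.05 and −2.47 ± 0.06. Of 8 genes of the non-sterol isoprenoid branch, which starts from the products around Fdps, 3 were lower and 2 higher, against 1 and 5 on library totals, such as Nus1 at −0.37 ± 0.04 and Pdss1 at 0.15 ± 0.04. Of 10 fatty acid synthesis genes tested, 6 were higher and 3 lower, such as Fads1 at 2.20 ± 0.09 and Elovl6 at −1.21 ± 0.05. All 6 dissociation stress genes were lower in crypt cells, such as Fos at −0.60 ± 0.04 and Atf3 at −1.48 ± 0.06, and their part in the members' differences was not tested.

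The 8 genes varied together to different degrees over the 42 sums of 7 classes and 6 libraries. Pearson's r between pairs ranged from 0.38 to 0.92 with a median of 0.70 (28 pairs, log2 of CPM + 1). These points share libraries, depth and classes, so no p is given. No r was computed over pairs of other genes, so these values have no background beside them. The 8 genes of most like pattern outside the members, among 7276 genes with a mean of at least 10 CPM, were Carhsp1 (r = 0.934), Preb (r = 0.905), Erp44 (r = 0.904), Mydgf (r = 0.900), Lgals2 (r = 0.900), Arl1 (r = 0.896), Cmas (r = 0.895) and Hsp90b1 (r = 0.893). Msmo1, at 0.889, followed next. Among all these genes, ranked by r with the members' mean, Cyp51, Fdps and Sqle ranked 2, 3 and 6. Fdft1 and Hmgcs1 ranked 21 and 25, and Insig1 and Idi1 ranked 124 and 243, though that mean includes each of them.

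No member was called between the genotypes in all epithelial cells, in crypt cells or in villus cells. The background was 0.00744% of 13433 genes in all epithelial cells, 0.00818% of 12224 genes in crypt cells and 0.00902% of 11092 genes in villus cells, which is 1 gene in each, Agpat4, named after its value was seen. DESeq2 called 26, 10 and 7 genes (0.194%, 0.0818% and 0.0631%), and 427, 353 and 434 genes had an unadjusted edgeR p under 0.05. Blocking on replicate number gave 4 genes in all epithelial cells in place of 1 (0.0298%), and 1 each in crypt (0.00818%) and villus cells (0.00902%). No member was called by DESeq2 or with the block. For every member the ranges of the groups overlapped in each of the 3 cell sets.

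Insig1 had 41.8, 83.8 and 99.5 CPM in all epithelial cells labelled Itgb7 KO, against 36.7, 66.7 and 75.2 CPM in wild-type cells. Replicate 1 was lowest in both groups, and within each replicate number the library labelled Itgb7 KO was higher. Its log2 fold change was 0.30 ± 0.29 (SE, edgeR adjusted p = 0.956), and 0.27 ± 0.10 with the replicate block (adjusted p = 0.651). In villus cells it was 0.36 ± 0.35 (adjusted p = 0.913), and 0.35 ± 0.10 with the replicate block (adjusted p = 0.576).

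Among the early enzymes, Idi1 had 53.0, 99.7 and 103 CPM in cells labelled Itgb7 KO, against 49.2, 87.0 and 76.9 CPM in wild-type cells. Hmgcs1 had 85.9, 127 and 119 CPM in cells labelled Itgb7 KO, against 86.2, 113 and 96.7 CPM in wild-type cells. Both were lowest in the replicate 1 library of each group. The log2 fold changes were 0.23 ± 0.22 for Idi1 and 0.12 ± 0.13 for Hmgcs1 (SE, edgeR adjusted p = 0.956 for each). Within replicate numbers Idi1 was higher in the library labelled Itgb7 KO in 3 of 3 and Hmgcs1 in 2 of 3, and with the replicate block the folds were 0.21 ± 0.11 and 0.12 ± 0.11 (adjusted p = 0.651 and 0.738). Fdps had 177, 193 and 156 CPM in cells labelled Itgb7 KO, against 151, 159 and 192 CPM in wild-type cells, a log2 fold change of 0.03 ± 0.15 (adjusted p = 0.99).

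The squalene and sterol enzymes overlapped as well. Fdft1 had 50.8, 49.8 and 40.7 CPM in cells labelled Itgb7 KO, against 46.9, 51.2 and 54.8 CPM in wild-type cells. Sqle had 39.7, 55.3 and 48.4 CPM in cells labelled Itgb7 KO, against 36.1, 47.8 and 45.2 CPM in wild-type cells. The log2 fold change was −0.14 ± 0.15 for Fdft1 and 0.11 ± 0.10 for Sqle (SE, edgeR adjusted p = 0.956 for each). Sqle was higher in the library labelled Itgb7 KO in 3 of 3 replicate numbers and Fdft1 in 1 of 3, and with the replicate block the fold of Sqle was 0.11 ± 0.09 (adjusted p = 0.713). Lss had 11.5, 9.46 and 7.81 CPM in cells labelled Itgb7 KO, against 10.3, 10.2 and 13.8 CPM in wild-type cells, a log2 fold change of −0.27 ± 0.22 (adjusted p = 0.956). Cyp51 had 50.6, 55.5 and 44.7 CPM in cells labelled Itgb7 KO, against 43.6, 50.3 and 62.9 CPM in wild-type cells, a log2 fold change of −0.08 ± 0.14 (adjusted p = 0.969). None of these differences passed the test, which does not show that the genotypes are alike.

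**Figure D4:**
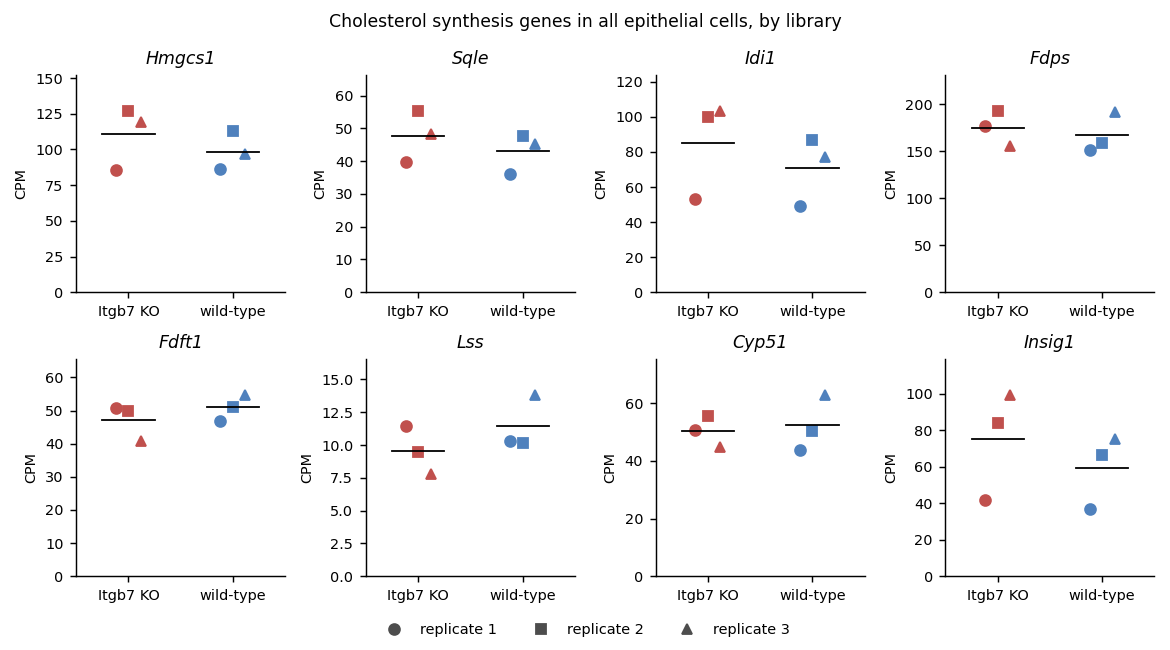
CPM of each gene in all epithelial cells (y axis) for the 3 libraries labelled Itgb7 KO (left) and the 3 wild-type libraries (right), marker shape by replicate number, with group means as lines. The groups overlap for all 8 genes, and replicate 1 is lowest for Insig1 in both groups, at 41.8 CPM in the library labelled Itgb7 KO and 36.7 CPM in the wild-type library.

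In crypt cells the log2 fold changes of the members ran from −0.31 ± 0.28 for Lss to 0.29 ± 0.31 for Insig1 (SE, lowest edgeR adjusted p = 0.935), and in villus cells from −0.30 ± 0.21 for Lss to 0.36 ± 0.35 for Insig1 (lowest adjusted p = 0.913). The difference of the genotype effect between crypt and villus was called for 0 of 12052 genes with edgeR (0% of them, 422 at an unadjusted p under 0.05), with DESeq2 for 1 gene, and for no member. By class, no member tested was called in any of the 7 classes; Lss was tested in 5 of them, since it did not pass the filter on low counts in Paneth-like and enteroendocrine-like cells. The background was 0.0102% of genes tested in stem-like, 0.00978% in lower-villus and 0.00905% in goblet-like cells. It was 0% in the other 4 classes. There edgeR left 335 genes with an unadjusted p under 0.05 in transit-amplifying-like, 390 in mature enterocyte-like, 78 in enteroendocrine-like and 27 in Paneth-like cells, and DESeq2 gave 10, 4, 0 and 2 calls in that order. The highest member fold was that of Idi1 in goblet-like cells (log2 0.53 ± 0.30) and the lowest that of Fdft1 in Paneth-like cells (log2 −0.60 ± 0.28).

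**Figure D5:**
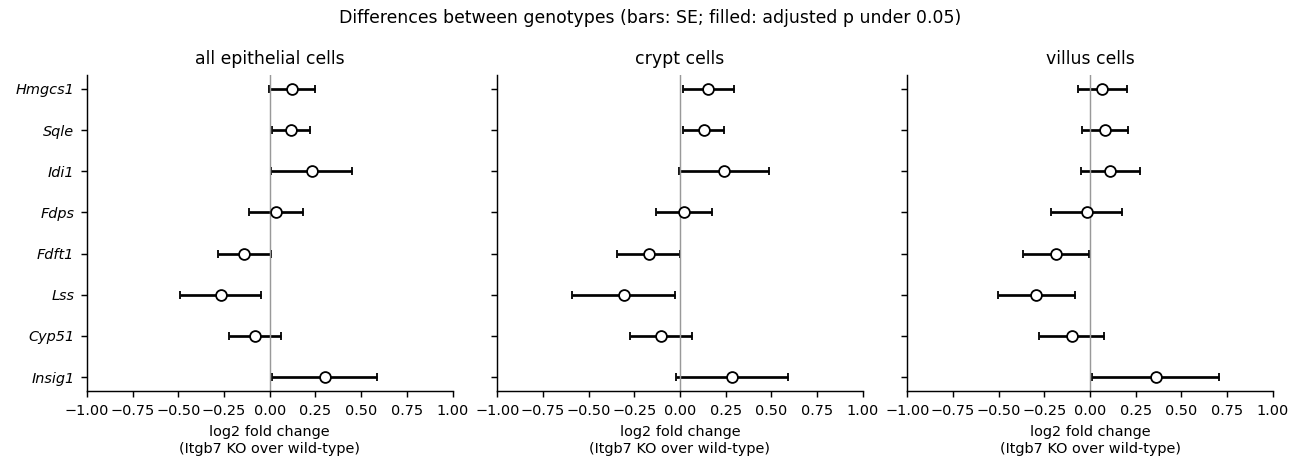
Log2 fold change of Itgb7 KO over wild-type libraries (x axis, SE bars, 3 libraries a group) for each gene (rows) in all epithelial, crypt and villus cells. All points are open, that is not called at an edgeR adjusted p of 0.05, and run from −0.31 for Lss in crypt cells to 0.36 for Insig1 in villus cells.

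No gene of the other lists was called between the genotypes in all epithelial cells. There Srebf2 had a log2 fold change of −0.33 ± 0.21, Npc1l1 −0.26 ± 0.19, Insig2 0.21 ± 0.17, Soat2 0.19 ± 0.19, Srebf1 −0.10 ± 0.14 and Abca1 −0.45 ± 0.40 (SE). Their edgeR adjusted p-values were at least 0.956. Of the dissociation stress genes, named after their values were seen, Hspa1a had 2.05 ± 0.57 and Hspa1b 1.97 ± 0.58. Jun had 0.15 ± 0.15, Fos 0.12 ± 0.29, Atf3 −0.30 ± 0.12 and Egr1 −0.54 ± 0.24. Proximal and distal intestine genes had medians of 0.07 and −0.18, with Fabp1 at 0.61 ± 0.33 and Fabp6 at −0.85 ± 0.44 furthest from 0. The part of stress and region genes in the members' genotype folds was not tested. The sums of 3 marker lists differed with the genotype label, 1 of them that of an epithelial class. These 3 were picked from all the marker lists because the ranges of the groups did not overlap, and the sums were not tested. The myeloid marker list (7 genes) summed to 575, 601 and 575 CPM in epithelial cells labelled Itgb7 KO, against 264, 56.7 and 187 CPM in wild-type cells, nearly all of it Cd74, while Adgre1 was at 0 in every library. Cd68 had 3.48, 2.23 and 2.42 CPM in cells labelled Itgb7 KO, against 3.72, 3.42 and 3.64 CPM in wild-type cells. Itgam had 3.06, 2.94 and 3.17 CPM, against 3.14, 2.90 and 3.33 CPM. T cell markers (14 of 18 in the files) summed to 1.154, 1.30 and 1.09 CPM in cells labelled Itgb7 KO, against 3.50, 1.52 and 1.77 CPM in wild-type cells, with Cd3g and Cd8a at 0 in 5 of the 6 libraries. Enteroendocrine markers (22 genes) summed to 1518, 1854 and 1878 CPM in cells labelled Itgb7 KO, against 567, 901 and 980.3 CPM in wild-type cells. The part of these shifts in the members' values was not tested.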

How the data were processed

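Single-cell UMI counts of 6 libraries were used. The authors deposited unnormalized whole-number counts per gene and barcode. Cell Ranger 2.1.1, bcl2fastq 2.17.1.14, Seurat and the mm10 build are named in the submitters' processing notes; the version of Seurat is not given in the sources used here. The lowest UMI total of a barcode differed between libraries, from 1417 to 13621. Barcodes needed 500 genes, 1000 UMIs and at most 25% mitochondrial UMIs. Scrublet's automatic threshold marked under 0.5% of barcodes in 5 of 6 libraries, so the highest-scoring barcodes were removed at 0.8% per 1000 barcodes, 969 in all. Cells were corrected for library with a Harmony-type method and clustered with scanpy 1.11.5 (Leiden, resolution 1.5, 28 clusters). The 8 members and 3 sterol lists, 36 genes, took no part in clustering, though genes that vary with them did. Clusters were named from marker genes, and 2778 cells in 4 clusters stayed unnamed.

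Counts were summed per library and class and tested with edgeR 4.0.16 (quasi-likelihood, TMM, filterByExpr) at an adjusted p of 0.05 over all genes tested, with the library as a block between classes. The test was checked on simulated counts, drawn independently with the same dispersion for all genes and no library effect. That check does not cover deviations that libraries share. DESeq2 1.42.0, median-of-ratios size factors, no filter on low counts, thinning to 2000 UMIs, Leiden resolution 1.0, blocks by replicate or serial number and leaving out each library were tried. Library totals alone, clusters 10 and 14 counted as villus, and the alternatives by class were chosen after seeing the data. Deviations of same-numbered libraries from their group means correlated at 0.849, 0.558 and 0.461 over 7192 genes, and the numbers were taken to pair libraries. Itgb7 KO replicate 3 and wild-type replicate 2 correlated at 0.728, above both libraries with their own numbers. Itgb7 KO replicate 2 and wild-type replicate 3 correlated at 0.425. The pairing of replicates 2 and 3 therefore rests on the numbers in the labels. Named genes were the 8 members, 8 regulators and sterol genes, up to 4 called genes with the lowest adjusted p of each other list, and the 8 genes of most like pattern. Some genes that this rule names are not reported here. The members and lists were chosen with earlier results of these data known.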

Additional observations from a re-analysis of the deposited data

How the results depend on the processing

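All 8 members kept their calls in stem-like against transit-amplifying-like cells under each alternative, and no member was called between the genotypes under any. Between the genotypes, DESeq2 called 26 genes in all epithelial, 10 in crypt and 7 in villus cells in place of 1 each, and by class 10 in transit-amplifying-like, 4 each in stem-like and mature enterocyte-like, 7 in lower-villus, 21 in goblet-like and 2 in Paneth-like cells. The replicate block gave 4 genes in all epithelial cells, 2 each in transit-amplifying-like, lower-villus and goblet-like, 1 each in mature enterocyte-like and enteroendocrine-like and 13 in Paneth-like cells, and it changed no member's call. The serial number block gave 4 genes in all epithelial and 2 in crypt cells. Without a filter on low counts 2 genes were called in crypt cells. For the difference of the genotype effect between crypt and villus, DESeq2 called 1 gene and the test without a filter 27, in place of 0. Thinning gave 0 genes between genotypes in crypt cells, 2863 in stem-like against transit-amplifying-like and 2747 in lower-villus against mature cells, on fewer UMIs. Leaving out each library in turn gave 0 to 1 genes in all epithelial, 0 to 1 in crypt and 0 to 1 in villus cells, 0 to 2 in stem-like, 0 to 1 in lower-villus and 0 to 1 in goblet-like cells. Of the members, genotype folds (log2) near 0 changed sign. With thinning, Fdps became −0.024 in all epithelial and −0.0027 in crypt cells, and in villus cells Hmgcs1 became −0.049 and Sqle −0.0052. Without single libraries Fdps ranged over −0.053 to 0.13, −0.059 to 0.14 and −0.19 to 0.14 in all epithelial, crypt and villus cells, Cyp51 over −0.17 to 0.029, −0.19 to 0.052 and −0.27 to 0.057, and Hmgcs1 in villus cells over −0.013 to 0.16. With stem-like against mature enterocyte-like cells in place of crypt against villus, Sqle became −0.54 (edgeR adjusted p = 1.5e-05) and Idi1 −0.10 (adjusted p = 0.158). In crypt against villus cells Fdft1 lost its call with thinning (−0.13, adjusted p = 0.152) and at Leiden resolution 1.0 (−0.076, adjusted p = 0.0973), where Sqle (0.20) and Idi1 (0.14) were called higher, and Idi1 was called higher without a filter (0.11, adjusted p = 0.019). In lower-villus against mature cells Sqle became 0.0085 without a filter, 0.14 with thinning, 0.033 at resolution 1.0, 0.084 on library totals and −0.039 to 0.061 without single libraries, and Lss 0.11 with thinning, 0.017 on library totals and −0.12 to 0.015 without single libraries. The cause of these changes was not tested. With 3 libraries a group, and libraries from 28475253 to 76133693 UMIs, the SE of the genotype folds in all epithelial cells ran from 0.10 to 0.29 on the log2 scale.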
